A study of Sus scrofa with 18 samples.

Results

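ATP6V1C2 and ATP6V0A4 are subunits of the vacuolar proton pump (V-ATPase) whose expression in the kidney is known mainly from intercalated cells. They were taken as every probe set whose only gene symbol in the array's annotation was ATP6V1C2 or ATP6V0A4, which gave 2 genes of 6765 named and 3 probe sets of 23999 tested. ATP6V1C2 had 2 probe sets, called here the brighter and the dimmer by their mean level, and ATP6V0A4 had 1. Where only the gene is named, the brighter is meant. Both genes were chosen because they were low against naive kidneys 4 h after transplantation in these same arrays, so their differences from naive and between times are given as descriptions with standard errors and no test. The CO comparison at 24 h did not enter that choice and was tested.

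The pump moves protons across membranes at the cost of ATP. Its V1 sector, which faces the cytosol, splits ATP, and its V0 sector, which spans the membrane, carries the protons. Subunit C, encoded by ATP6V1C1 or ATP6V1C2, joins V1 to V0 and is released when the pump is switched off. Subunit a, encoded by a family that includes ATP6V0A4 and TCIRG1, is the large membrane subunit of V0. Most subunits are made in every cell to acidify lysosomes and endosomes. Intercalated cells of the collecting duct use isoforms of some of them to secrete acid into the urine, and inherited loss of ATP6V0A4 causes distal renal tubular acidosis.

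RNA of 18 pig kidneys was hybridised to Affymetrix pig arrays, with 1 array per kidney. Naive kidneys had no transplantation (n = 2), and transplanted kidneys were taken at 4 h or 24 h, either untreated or treated with CO (carbon monoxide), with 4 arrays in each of the 4 groups. Donors 1 to 4 gave the 4 h groups and donors 5 to 8 the 24 h groups, each donor number having 1 untreated and 1 CO kidney. Strain, sex, age, and whether donor, graft or recipient received CO are not given in the sources used here. For the CO arrays 1 label field gives air as the treatment, but their title and source name CO and decided the group. Values are log2 levels after RMA, a method that corrects background, normalises arrays to each other and summarises the probes of a probe set. The range over all arrays was 0.226 to 13.46, array medians were 3.75 to 3.94, and the brightest of 17 probe sets for spiked tags, taken as background, averaged 1.62. The number of arrays limits the precision. Levels are of whole kidney tissue, in which fewer cells of a type and less RNA per cell cannot be told apart.

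The untreated 4 h array of donor 1 stood apart from its group. Its mean correlation over probe sets was 0.982 with the naive arrays and 0.956 with the other arrays of its own group. The members' untreated 4 h levels and their correlations are given with and without it, and so are the marker results that changed when it was left out.

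The label of intercalated cells could be checked only in part. Of 21 markers listed for these cells, 5 had a probe set of their own, namely RHBG, HEPACAM2, TMEM213, KIT and ATP6V0D2. In naive kidneys their mean levels ran from 6.08 for KIT to 8.27 for TMEM213, all above background. FOXI1, SLC4A1 and SLC26A4, which define these cells and their acid- and base-secreting forms, were not analysed here.

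ATP6V1C2 was highest in naive kidneys, lowest at 4 h and intermediate at 24 h. With the brighter probe set, the naive arrays read 7.15 and 7.49. Untreated 4 h kidneys of donors 1 to 4 read 6.80, 3.00, 3.75 and 3.20, and CO kidneys of the same donors read 4.24, 5.08, 4.21 and 3.87. All 4 h arrays but the untreated array of donor 1 thus lay at 5.08 or lower, and that array lay 0.52 below the naive mean. At 24 h, untreated kidneys of donors 5 to 8 read 6.46, 5.60, 5.91 and 6.35, and CO kidneys read 5.27, 5.86, 6.03 and 6.54. Both 24 h groups sat between the naive arrays and the CO 4 h arrays without reaching either.

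As group means, ATP6V1C2 was 7.32 ± 0.24 in naive (SD, n = 2), 4.19 ± 1.77 in untreated 4 h, 4.35 ± 0.51 in CO 4 h, 6.08 ± 0.40 in untreated 24 h and 5.93 ± 0.52 in CO 24 h kidneys (SD, n = 4 each). The order was naive, untreated 24 h, CO 24 h, CO 4 h and untreated 4 h. Within that order the 24 h groups did not differ beyond their spread, nor did the 4 h groups with donor 1 included. Without the untreated kidney of donor 1, untreated 4 h arrays read 3.00 to 3.75 and CO 4 h arrays 3.87 to 5.08. In that setting limma called 0% of all probe sets between CO and untreated kidneys at 4 h. Against naive, the untreated 4 h mean was lower by 3.13 ± 0.73 on the log2 scale (SE), which is 8.78-fold lower, and the CO 4 h mean was 7.84-fold lower. Without donor 1, the untreated 4 h mean was 3.32 ± 0.39 (SD, n = 3), which is 16.1-fold below naive. At 24 h the means were 2.36-fold below naive in untreated and 2.63-fold below in CO kidneys.

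The dimmer ATP6V1C2 probe set gave the same picture at a lower level. Naive arrays read 6.24 and 6.51. Donors 1 to 4 read 5.97, 2.91, 3.22 and 2.43 untreated, and 3.57, 4.21, 3.50 and 3.46 with CO. Its untreated 4 h mean was 6.70-fold below naive, or 11.5-fold without donor 1. At 24 h the untreated kidneys read 5.45, 4.61, 5.13 and 5.44 and the CO kidneys 4.49, 5.20, 5.12 and 5.46, again between naive and CO 4 h. The correlation between both probe sets over 18 arrays was 0.992, and 0.980 after group means were removed.

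ATP6V0A4, the membrane subunit of V0, followed the same order of groups with smaller differences. Naive arrays read 7.37 and 7.49. Untreated 4 h kidneys of donors 1 to 4 read 6.91, 4.50, 5.01 and 4.64, and their CO partners read 5.63, 5.73, 5.13 and 5.34. The untreated array of donor 1 was again the high one, 0.51 below the naive mean, while the other untreated 4 h arrays lay 2.42 to 2.92 below it. At 24 h, untreated kidneys of donors 5 to 8 read 6.43, 6.35, 6.24 and 6.71, and CO kidneys read 6.04, 6.30, 6.12 and 6.66. The 24 h arrays formed a narrow band, from 6.04 to 6.71, that held no array of another group.

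Group means of ATP6V0A4 were 7.43 ± 0.09 in naive (SD, n = 2), 5.27 ± 1.12 in untreated 4 h, 5.46 ± 0.27 in CO 4 h, 6.43 ± 0.20 in untreated 24 h and 6.28 ± 0.28 in CO 24 h kidneys (SD, n = 4 each). The untreated 4 h mean was lower than naive by 2.16 ± 0.46 (log2, SE), or 4.47-fold, and the CO 4 h mean was 3.91-fold lower. Without donor 1 the untreated 4 h mean was 4.72 ± 0.26 (SD, n = 3), 6.54-fold below naive. At 24 h the means were 1.99-fold below naive in untreated and 2.21-fold below in CO kidneys. As with ATP6V1C2, the means at each time differed between treatments by less than their spread when donor 1 was included. Without its untreated kidney, untreated 4 h arrays read 4.50 to 5.01 and CO 4 h arrays 5.13 to 5.73.

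**Figure D1:**
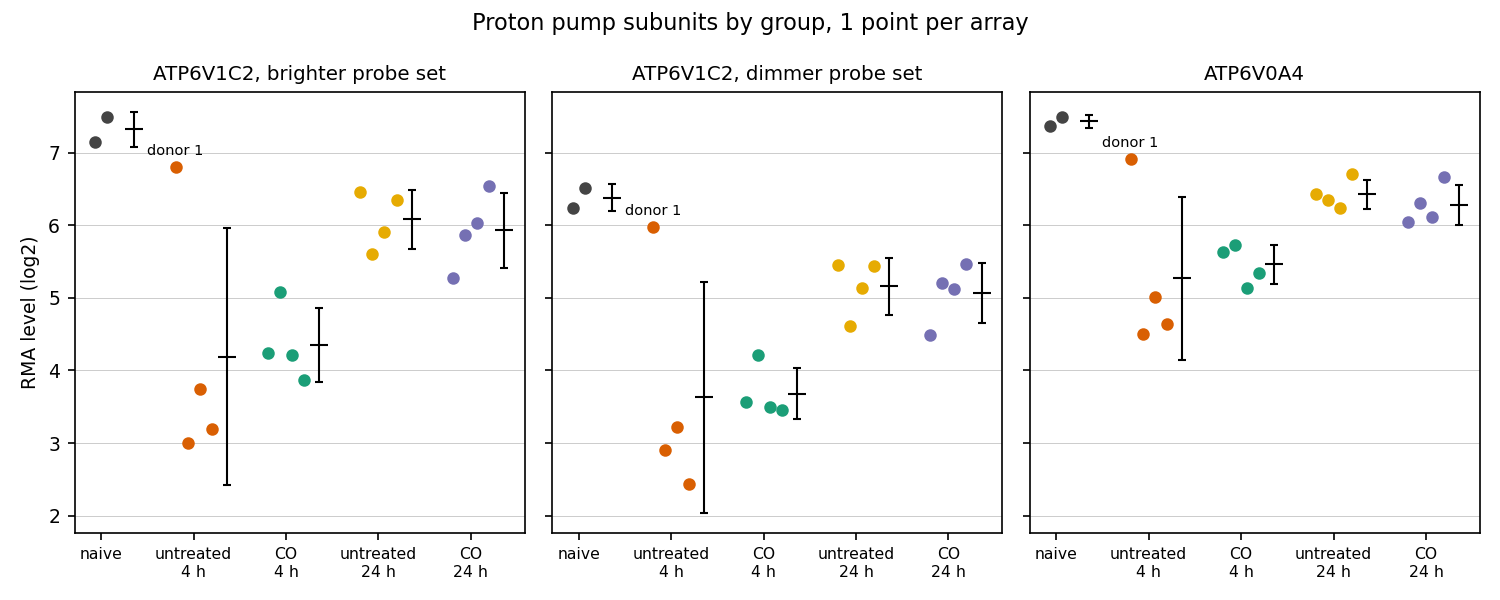
RMA level (log2, vertical axis) of both ATP6V1C2 probe sets and ATP6V0A4 in the 5 groups, with 1 point per array and, to the right of the points, the group mean and SD (n = 2 naive, n = 4 otherwise). The untreated 4 h kidney of donor 1 reads 6.80 for the brighter ATP6V1C2 probe set, beside 3.00 to 3.75 in the other untreated 4 h kidneys.

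On the linear scale, the untreated 4 h means were 11.4% of naive for ATP6V1C2 and 22.4% for ATP6V0A4, or 6.23% and 15.3% without donor 1. CO 4 h means were 12.8% and 25.5% of naive. By 24 h the untreated means stood at 42.3% of naive for ATP6V1C2 and 50.2% for ATP6V0A4, and the CO means at 38.1% and 45.2%. The 24 h kidneys came from other donors than the 4 h kidneys, so these are differences between animals at each time and not a course within an animal. Of the log2 distance between naive and 4 h, the 24 h means had closed 60.4% for ATP6V1C2 and 54.0% for ATP6V0A4 in untreated kidneys, or 69.0% and 63.3% without donor 1. With CO the shares were 53.1% and 41.9%.

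Ranges of the groups separated in the same way for all 3 probe sets. Naive arrays overlapped no transplanted group. CO 4 h arrays overlapped neither 24 h group, while untreated 4 h arrays overlapped CO 4 h and both 24 h groups through donor 1. Over all probe sets, limma called 0.942% higher and 0.563% lower in untreated 4 h against naive kidneys, and 6.84% higher and 6.72% lower in CO 4 h against naive (adjusted p under 0.05). The shares were 6.79% and 7.77% in untreated 24 h against naive, and 5.75% and 5.93% in CO 24 h against naive. Between times, 5.15% were higher and 4.57% lower at 24 h in untreated kidneys, and 10.2% and 7.44% with CO. These shares are of limma calls, a different measure from ranges without overlap, and the share of all probe sets without overlap is not given here. For that reason, and since the members were chosen from such contrasts, nothing is read from their separation.

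ATP6V1C2 lay further below naive than ATP6V0A4 did in 14 of 16 transplanted arrays, and in 8 of 8 at 4 h. The exceptions were the untreated kidney of donor 5 and the CO kidney of donor 7, both at 24 h. At 4 h the difference between the genes was smallest in donor 1 untreated, where both were near naive, at 0.52 and 0.51 below. With the dimmer ATP6V1C2 probe set that array lay 0.41 below naive, less far than for ATP6V0A4, so the counts hold for the brighter. The kidney of donor 2 without CO was the lowest for both genes, at 4.32 below naive for ATP6V1C2 and 2.92 below for ATP6V0A4. By the dimmer ATP6V1C2 probe set the untreated kidney of donor 4 was lowest, at 3.94 below naive, beside 3.47 below in donor 2.

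Arrays high for one member were high for the other. The correlation of ATP6V1C2 with ATP6V0A4 was 0.979 over the 18 arrays, 0.955 after group means were removed and 0.975 without the naive arrays. Of 10066 other probe sets with a single symbol, 0 had a higher correlation with either member by any of these measures. Both members were chosen for low levels at 4 h in these arrays, so their correlation over 18 arrays rests in part on that choice. The arrays share their group differences and their normalisation, and the removal of group means leaves the untreated donor 1 array as the farthest point of its group. Without that array, a setting chosen after seeing the data, the correlation was 0.978 over 17 arrays with 0 higher probe sets for either member. With group means also removed it was 0.767, and 16 other named probe sets correlated more highly with ATP6V1C2 and 17 with ATP6V0A4. The likeness of the members within groups thus rested in part on donor 1.

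**Figure D2:**
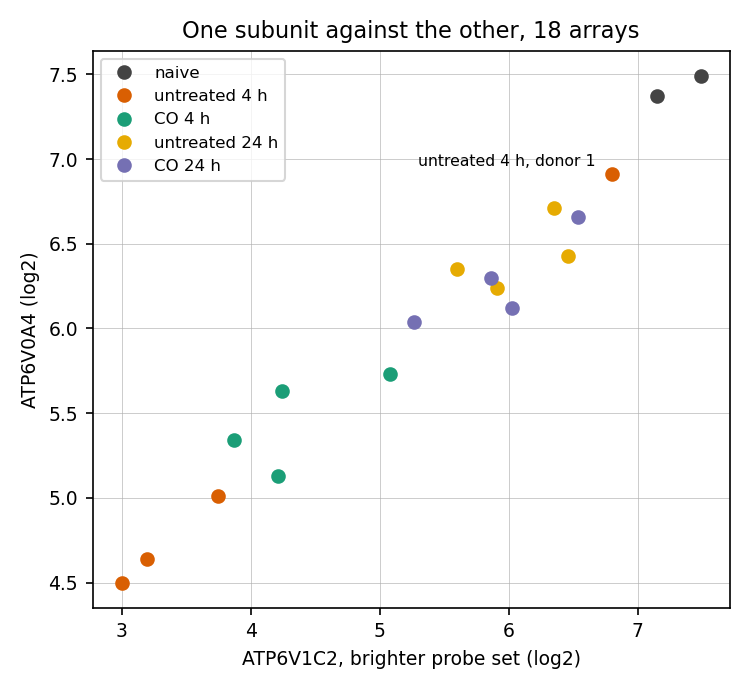
ATP6V0A4 (log2, vertical axis) against ATP6V1C2 by its brighter probe set (log2, horizontal axis), with 1 point for each of the 18 arrays coloured by group. The points run from the untreated 4 h kidney of donor 2, at 3.00 and 4.50, to the naive array at 7.49 on both axes, with the untreated donor 1 kidney at 6.80 and 6.91.

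Whether CO changed the levels was asked within each time. At 24 h the CO mean of ATP6V1C2 was lower than the untreated mean by 0.15 ± 0.60 (log2, SE, n = 4 each), with a 95% interval of -1.42 to 1.11 and an adjusted p of 1 (limma, unadjusted p = 0.801). For ATP6V0A4 the CO mean was also lower by 0.15 ± 0.37, with an interval of -0.94 to 0.64 and an adjusted p of 1 (limma, unadjusted p = 0.691). The dimmer ATP6V1C2 probe set differed by -0.09 ± 0.53, with an interval of -1.21 to 1.03 and an adjusted p of 1 (limma). These intervals leave room for a change of more than 1 log2 unit in ATP6V1C2 either way, so the test does not show that the groups were alike. Over all probe sets limma called 0% higher and 0% lower with CO at 24 h, and 281 had an unadjusted p under 0.05. Without the CO kidney of donor 5, the ATP6V1C2 difference was 0.06.

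At 4 h the CO mean was above the untreated mean by 0.16 ± 0.60 for ATP6V1C2 and by 0.19 ± 0.37 for ATP6V0A4 (log2, SE). Both values depend on donor 1. Without its untreated kidney they were 1.03 and 0.74, respectively. In that comparison too, limma called 0% of all probe sets higher and 0% lower, with 787 at an unadjusted p under 0.05.

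Within donors, the CO kidney had less ATP6V1C2 than its untreated partner in donor 1, by 2.56, and in donor 5, by 1.19 on the log2 scale. It had more in donors 2, 3 and 4, by 2.08, 0.46 and 0.67, and in donors 6, 7 and 8, by 0.26, 0.12 and 0.20. By the dimmer probe set the CO minus untreated differences of donors 6, 7 and 8 were 0.59, -0.01 and 0.02. The direction therefore differed between donors at both times, and the largest differences, in donors 1 and 2, were opposite. For ATP6V0A4 the CO minus untreated differences of donors 1 to 4 were -1.28, 1.22, 0.12 and 0.71. Those of donors 5 to 8 were -0.39, -0.05, -0.12 and -0.04, so that all 4 pairs at 24 h were lower with CO, 3 of them by 0.12 or less.

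**Figure D3:**
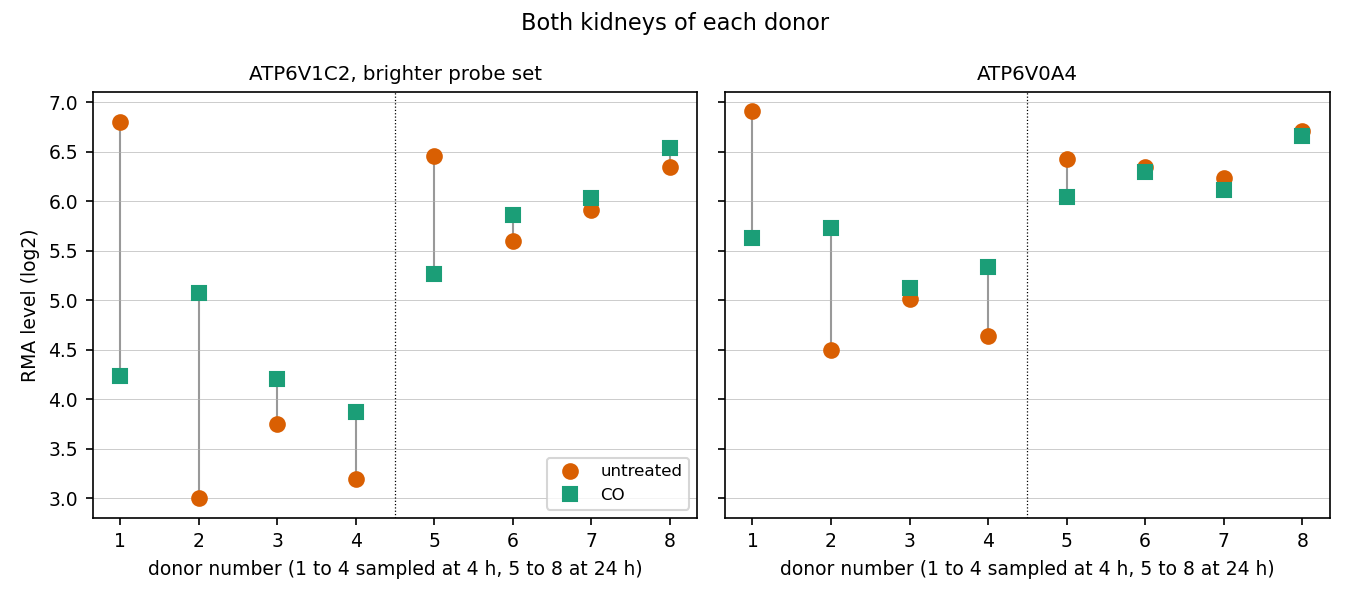
Level (log2, vertical axis) of ATP6V1C2 by its brighter probe set and of ATP6V0A4 in both kidneys of each donor (horizontal axis), untreated as circles and CO as squares, joined within a donor. The line of donor 1 runs down from untreated to CO, by 2.56 for ATP6V1C2, and that of donor 2 runs up, by 2.08.

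The rest of the pump was described from 15 other V-ATPase genes with 20 probe sets, each gene by its brightest. In untreated 4 h kidneys, 0 of 15 passed against naive (limma, 3 with an unadjusted p under 0.05), and their median difference was -0.20, beside -0.03 over all probe sets. In CO 4 h kidneys only ATP6V0E1, a small subunit of V0, passed, lower by 0.50 ± 0.15 (adjusted p = 0.0395, limma). Of all probe sets, 6.72% were lower and 6.84% higher in CO 4 h kidneys against naive. The differences of the other 14 genes from naive at 4 h lay between -0.53 and 0.61 over both treatments, where those of the members lay between -3.13 and -1.97. Since the members were chosen for low levels at 4 h, nothing is read from this gap. The ATP6V0E1 call was lost without either naive array or without the CO kidney of donor 1 or 3.

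The measured paralogs did not share the low levels at 4 h for which the members were chosen. ATP6V1C1, the widely expressed form of subunit C, read 7.99 and 7.84 in naive kidneys, 7.59 to 8.21 in untreated and 7.26 to 8.29 in CO kidneys at 4 h. Its group means at 4 h were within 0.04 of naive. At 24 h all of its arrays read between 7.10 and 7.54, and it was lower than at 4 h by 0.73 ± 0.20 in untreated (adjusted p = 0.0313, limma) and by 0.65 ± 0.20 in CO kidneys (adjusted p = 0.0378, limma), the CO ranges overlapping. The CO call was lost without the 4 h kidney of donor 1, 3 or 4, without the 24 h kidney of donor 6 or 7, and when the fit held no other groups (adjusted p = 0.105, limma). The untreated call was lost without the 4 h kidney of donor 3 or 4 or the 24 h kidney of donor 5, 6 or 7. Both were lost with arrays whose file names carry the same date taken as a block (file-name groups). With all arrays, ATP6V1C1 fell between the times at which the means of ATP6V1C2 were 1.89 ± 0.60 and 1.58 ± 0.60 higher (log2, SE). TCIRG1, the form of subunit a known from osteoclasts and macrophages, had a mean of 4.44 in naive, 5.05 in untreated 4 h and 5.31 in untreated 24 h kidneys. ATP6V0A1 and ATP6V0A2, the other paralogs of ATP6V0A4, were not analysed here.

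At 24 h the other V-ATPase genes differed from naive in both directions. In untreated kidneys 4 of 15 fell, namely ATP6AP2, the accessory subunit also known as the prorenin receptor, by 1.11 ± 0.23 (adjusted p = 0.00477, limma), ATP6V1G1 by 0.87 ± 0.26, ATP6V1D by 0.82 ± 0.26 and ATP6V0D1 by 0.65 ± 0.19. ATP6V1G1 and ATP6V1D belong to the stalks of V1, and ATP6V0D1 to the V0 end of the central stalk. The 2 that rose were TCIRG1, by 0.87 ± 0.27 (adjusted p = 0.0382, limma), and ATP6V1B2, a subunit of the ATP-splitting ring, by 0.79 ± 0.23 (adjusted p = 0.0293, limma). The second probe sets of ATP6V1B2 and TCIRG1 differed by 0.13 ± 0.19 and 0.56 ± 0.30 and did not pass, nor did that of ATP6V0D1, at -0.25 ± 0.17. In CO 24 h kidneys ATP6AP2 fell by 1.14 ± 0.23 (adjusted p = 0.00549, limma) and ATP6V1G1 by 0.85 ± 0.26 (adjusted p = 0.0415, limma), and 0 of 15 rose. Of all probe sets, 7.77% were lower and 6.79% higher in untreated 24 h kidneys against naive, and 5.93% and 5.75% with CO.

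The median over the 15 genes was -0.26 in untreated and -0.25 in CO 24 h kidneys, beside 0.01 and -0.02 over all probe sets. The untreated count of 6 was 1 without either naive array or without donor 6, 2 without donor 7 and 3 without donor 5. The CO count of 2 was 0 without the naive 1 array and 1 without naive 2 or the CO kidney of donor 6 or 7. ATP6AP2 was the call left in each of these CO counts of 1. With file-name groups as a block, 0 of 15 passed in any comparison (limma), and 0.663% of all probe sets passed in untreated and 0% in CO 24 h kidneys against naive.

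**Figure D4:**
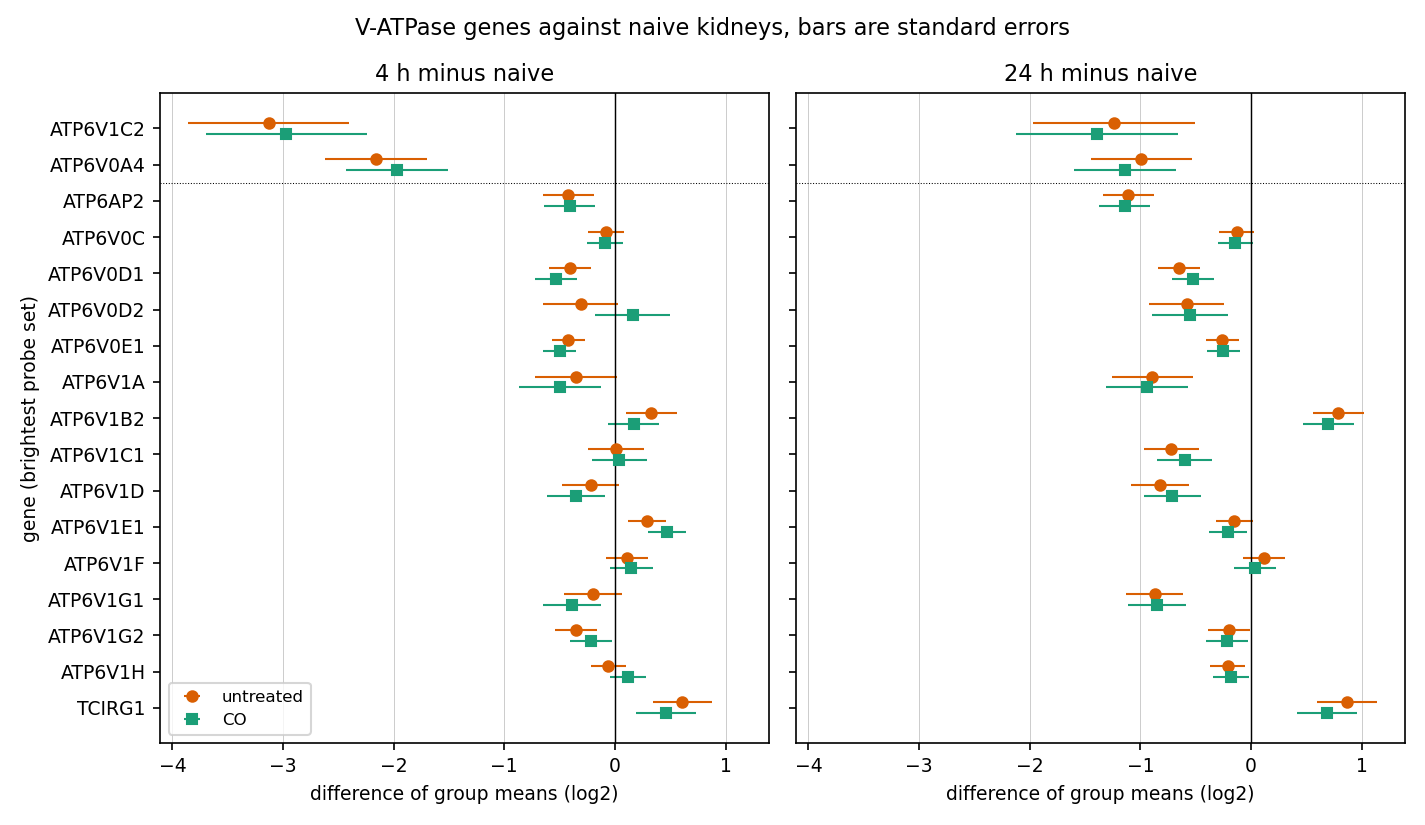
Difference of group means from naive (log2, horizontal axis) with its standard error for the members, above the dotted line, and 15 other V-ATPase genes, at 4 h (left) and 24 h (right), untreated as circles and CO as squares. At 4 h ATP6V1C2 and ATP6V0A4, which were chosen for low levels at that time, stand between -3.13 and -1.97, and the other genes between -0.53 and 0.61.

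From 4 h to 24 h, 0 of the 15 genes rose in either treatment. ATP6AP2 fell by 0.69 ± 0.19 in untreated kidneys (adjusted p = 0.0282, limma) and by 0.73 ± 0.19 with CO (adjusted p = 0.0138, limma). ATP6V1E1, a stalk subunit of V1, fell by 0.68 ± 0.14 with CO (adjusted p = 0.00376, limma). With ATP6V1C1 this made 2 genes in untreated and 3 in CO kidneys. Of all probe sets, 4.57% were lower and 5.15% higher at 24 h in untreated kidneys, and 7.44% and 10.2% with CO. With file-name groups as a block 0 passed. The untreated count was 0 without the 4 h kidney of donor 4 or the 24 h kidney of donor 5, 6 or 7, and 4 without that of donor 8. Between CO and untreated kidneys, 0 of 15 passed at 4 h and at 24 h (limma), and 0 had an unadjusted p under 0.05.

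Over the 18 arrays, the correlations of these 15 genes with ATP6V1C2 ran from -0.68 for ATP6V1E1 to 0.66 for ATP6V0E1, and those with ATP6V0A4 from -0.62 to 0.62. ATP6V0D2, which intercalated cells share with osteoclasts, was at 6.47 in naive, 6.16 in untreated 4 h, 6.63 in CO 4 h, 5.89 in untreated 24 h and 5.92 in CO 24 h kidneys. Its differences from naive did not pass, and its correlation with ATP6V1C2 was -0.16. The intercalated isoform genes ATP6V1B1 and ATP6V1G3 were not analysed here.

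The measured intercalated cell markers had lower means at 24 h than at 4 h in both treatments, whereas the means of the members were higher at 24 h. TMEM213, a membrane protein gene that marks these cells, had means of 8.27 in naive, 7.09 in untreated 4 h, 7.32 in CO 4 h, 6.12 in untreated 24 h and 6.05 in CO 24 h kidneys. Between 4 h and 24 h it fell by 0.97 ± 0.26 untreated (adjusted p = 0.0282, limma) and by 1.27 ± 0.26 with CO (adjusted p = 0.00405, limma). RHBG, a channel for ammonia, had means of 6.98, 6.13, 5.87, 5.50 and 5.30 in the same order of groups. HEPACAM2, an adhesion molecule, had means of 7.16, 6.09, 6.04, 5.66 and 5.75. For the 4 markers other than TMEM213 the change between times did not pass. The untreated TMEM213 call was lost without the 4 h kidney of donor 3 or the 24 h kidney of donor 6 or 7.

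Against naive, 0 of the 5 markers passed in untreated 4 h kidneys (limma, 3 with an unadjusted p under 0.05), with a median of -0.85. Without the untreated kidney of donor 1, 2 of 5 passed, TMEM213 at 1.49 below naive (adjusted p = 0.00105, limma) and HEPACAM2 at 1.39 below (adjusted p = 0.0084, limma), while RHBG was 0.92 below. In that setting 13.9% of all probe sets passed, where 0.942% were higher and 0.563% lower with all arrays. In CO 4 h kidneys RHBG passed, lower by 1.11 ± 0.31 (adjusted p = 0.0293, limma). That call was lost without either naive array or the CO kidney of donor 1, 2 or 3. It was also lost when the fit held no other groups (adjusted p = 0.075, limma). At 24 h, TMEM213, HEPACAM2 and RHBG fell in both treatments, where 7.77% of all probe sets were lower in untreated and 5.93% in CO kidneys. In untreated kidneys TMEM213 fell by 2.15 ± 0.32 (adjusted p = 6.64e-04, limma), HEPACAM2 by 1.50 ± 0.38 and RHBG by 1.48 ± 0.31. In CO kidneys the falls were 2.23 ± 0.32, 1.41 ± 0.38 and 1.68 ± 0.31. Both HEPACAM2 calls at 24 h were lost without either naive array, and that with CO also without the CO kidney of donor 5 or 7. KIT and ATP6V0D2 passed at neither time. With file-name groups as a block, 0 of 5 passed at 24 h (limma). Without the naive 2 array, 1 of 5 passed at 24 h in each treatment. The largest difference of a marker from naive was at 24 h, where those of the members were less than at 4 h.

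**Figure D5:**
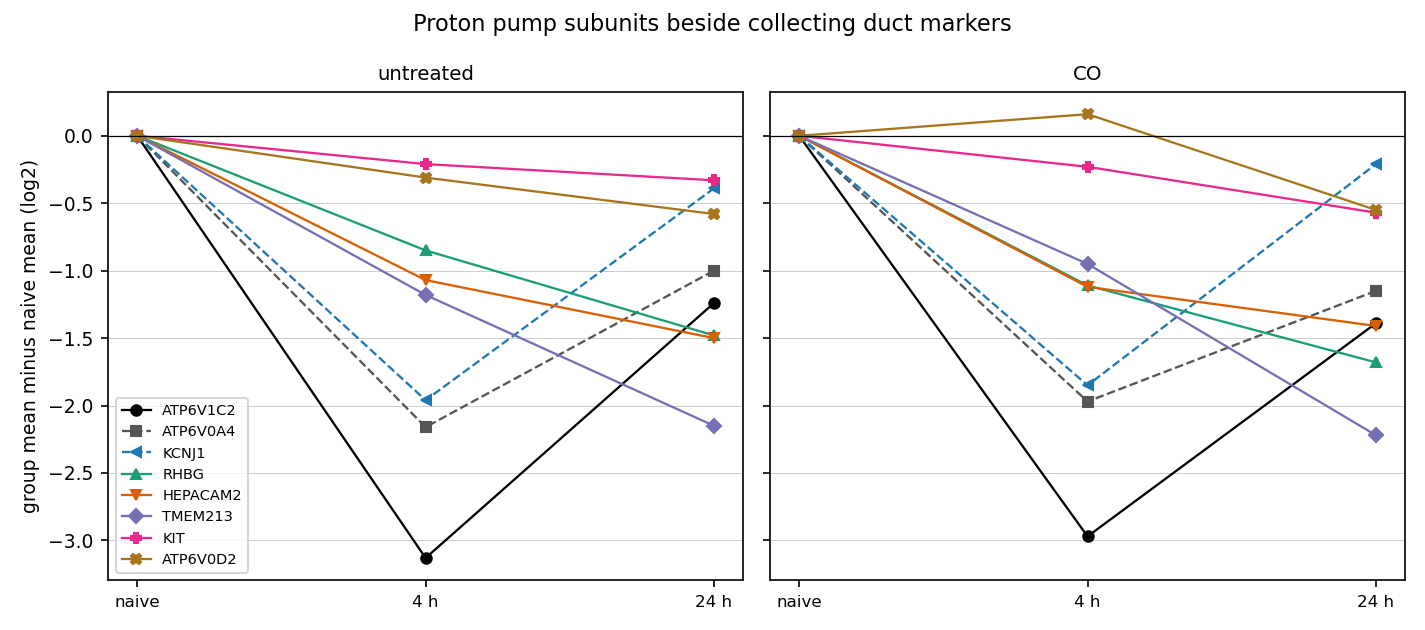
Group mean minus naive mean (log2, vertical axis) of the members, KCNJ1 and the 5 measured intercalated cell markers in naive, 4 h and 24 h kidneys, untreated (left) and CO (right), each gene by its brightest probe set. ATP6V1C2, ATP6V0A4 and KCNJ1 are lowest at 4 h, whereas TMEM213 is lowest at 24 h, at 2.15 below naive in untreated and 2.23 below in CO kidneys.

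Within groups TMEM213 did vary with the members. Its correlation over 18 arrays was 0.16 with ATP6V1C2 and 0.23 with ATP6V0A4. After group means were removed it was 0.936 and 0.906, the highest for either member among probe sets of other named genes. The untreated 4 h kidneys of donors 1 to 4 read 8.01, 6.45, 7.08 and 6.82 for TMEM213, so donor 1 was again near naive and donor 2 the lowest. HEPACAM2, at 7.06 in donor 1 and 5.28 in donor 2, had the same extremes. Without that kidney the TMEM213 correlations after removal of group means were 0.900 and 0.838, with 1 and 3 probe sets of named genes higher, and those of HEPACAM2 were 0.014 and 0.035. These correlations are over arrays that share groups and donors and are given as a description.

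By the rule of the highest Pearson correlation over 18 arrays, the genes most like ATP6V1C2 were PPFIA3 (0.928), INPP5A (0.924), BACE1 (0.917), KCNJ1 (0.911) and PEX2 (0.909). Those most like ATP6V0A4 were PPFIA3 (0.915), PEX2 (0.910), BACE1 (0.901), INPP5A (0.896) and RWDD3 (0.888), so that 4 of 5 were shared. With group means removed, the 5 most like ATP6V1C2 were TMEM213, NEO1 (0.889), GAS6 (0.882), SHROOM2 (0.880) and TARBP1 (0.880). Those most like ATP6V0A4 were TMEM213, MARCH7 (0.883), SCARA5 (0.874), FAM107A (0.865) and NEO1 (0.859). For neither member did any of the first 5 appear again after group means were removed. Of the first 5, 3 stayed with Spearman correlation and 2 without the naive arrays, for each member.

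KCNJ1, the potassium channel ROMK of principal cells and the thick ascending limb, had a correlation of 0.911 with ATP6V1C2 and 0.882 with ATP6V0A4 over 18 arrays, the highest among the collecting duct genes listed. With group means removed it was 0.833 and 0.820, below TMEM213, and without untreated donor 1 these were 0.561 and 0.518. It read 8.47 and 8.73 in naive kidneys, 8.42, 5.55, 6.74 and 5.84 in untreated kidneys of donors 1 to 4 and 6.79, 7.12, 7.17 and 5.92 in their CO partners. At 24 h its lowest array was 7.75 and its highest 9.05, so it reached the naive level, which the members did not. Against naive at 4 h its difference was -1.96 ± 0.60 in untreated and -1.85 ± 0.60 in CO kidneys, and neither passed (adjusted p = 0.0856 and 0.0514, limma). Without the untreated kidney of donor 1, the untreated 4 h mean of KCNJ1 was 2.56 below naive and passed (adjusted p = 0.00142, limma), as did 13.9% of all probe sets. With CO it rose by 1.64 ± 0.49 from 4 h to 24 h (adjusted p = 0.03, limma), a call lost with file-name groups as a block (adjusted p = 0.575, limma) and without the CO kidney of donor 1, 4, 5 or 8. In untreated kidneys the KCNJ1 mean was 1.57 ± 0.49 higher at 24 h and did not pass (adjusted p = 0.053, limma). It passed with quantile normalisation, a robust trended variance and a filter on dim probe sets (adjusted p = 0.0445, 0.0489 and 0.0431, limma). Array weights also gave a pass (adjusted p = 0.00796, limma), as did leaving out the untreated kidney of donor 1, at 2.17 ± 0.37 (adjusted p = 0.00174, limma). Between these times 12.2% of all probe sets passed without that kidney.

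Of the 7 measured principal cell markers of 12 listed, KCNJ1 included, 0 passed against naive at 4 h in either treatment (limma, 3 in each with an unadjusted p under 0.05). Under the alternatives 0 to 2 passed in untreated and 0 to 3 in CO 4 h kidneys. With file-name groups as a block 1 passed in CO 4 h kidneys. At 24 h 3 fell in each treatment, namely HSD11B2, the enzyme that inactivates cortisol, by 1.63 ± 0.36 in untreated kidneys, and the sodium channel subunits SCNN1B, by 1.01 ± 0.26, and SCNN1A, by 0.88 ± 0.28. Of all probe sets, 7.77% were lower in untreated and 5.93% in CO 24 h kidneys. The untreated count of 3 was 1 without either naive array, and that with CO was 0 without naive 1 and 1 without naive 2 or donor 5. With file-name groups as a block, 0 of 7 passed at 24 h in either treatment.

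Genes of other nephron segments moved mostly at 24 h. Of 14 proximal tubule genes measured, 0 passed against naive in untreated and 1 in CO 4 h kidneys, while 12 and 10 fell at 24 h. Of all probe sets at 24 h, 7.77% were lower and 6.79% higher in untreated kidneys, and 5.93% and 5.75% with CO. The CO 24 h count of 10 was 3 without naive 1 and 4 without naive 2, and the call at 4 h, LRP2, was lost without either. Their mean level at 24 h lay 2.19 to 3.78 below naive in untreated and 1.45 to 2.86 below in CO arrays. Of 5 loop and distal nephron genes, 0 passed at 4 h and 3 fell at 24 h in each treatment, with EGF lower by 4.22 ± 0.60 in untreated kidneys. With file-name groups as a block, at 24 h against naive, 0 of these 5 genes passed in either treatment, and 6 of the 14 proximal tubule genes passed in untreated and 0 in CO kidneys. Markers of phagocytes, cells that also carry V-ATPase, were summed over 11 measured of 15 listed. Their mean level lay above naive by 0.69 to 2.49 in untreated 4 h, 0.58 to 0.96 in CO 4 h, 1.17 to 2.74 in untreated 24 h and 0.55 to 2.59 in CO 24 h arrays. Of them 6 rose in untreated and 4 in CO kidneys at 24 h, and their part in the V-ATPase results was not tested. With file-name groups as a block these counts were both 0, and the calls were also lost without the naive 1 array. Without untreated donor 1 the untreated 4 h count went from 0 to 7, with 13.9% of all probe sets called. Of 18 lysosome genes, 2 rose in untreated 4 h kidneys, NPC1 and CTSS, and 1 rose and 4 fell with CO at 4 h, and both counts were 0 without either naive array. At 24 h 2 rose and 4 fell in each treatment, in all 6, or 3 without naive 2, and with CO 2 without naive 1. With file-name groups as a block that count was 1 in untreated and 0 in CO kidneys.

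RNA quality was read from the GAPDH and actin probe sets at the end and the start of the transcript, whose difference grows with degraded RNA. For actin it was -0.51 to -0.15 in naive, -0.26 to -0.02 in untreated 4 h and -0.24 to 0.24 in CO 4 h arrays. At 24 h it was -0.37 to 0.20 in untreated and 0.06 to 0.41 in CO arrays, the latter above all naive values. For GAPDH it was 0.73 to 0.85 in naive, 0.77 to 1.00 in untreated 4 h, 0.83 to 1.08 in CO 4 h, 0.97 to 1.12 in untreated 24 h and 0.83 to 1.32 in CO 24 h arrays. The part of RNA quality in the members' differences was not tested.

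The array file names fall into 4 groups by a date they carry. Group 1 is made of naive 1 and the 6 arrays of donors 1, 3 and 4. Group 2 has naive 2, the donor 2 pair and donor 5 untreated. The remaining 24 h arrays form group 3, apart from donor 6 with CO, which is alone in group 4. Within group 1 the untreated 4 h difference from naive was -2.57 ± 1.24 for ATP6V1C2 and -1.85 ± 0.80 for ATP6V0A4, and the CO 4 h difference was -3.04 and -2.00. CO minus untreated at 4 h was -0.48 and -0.15 in that group, the reverse of the direction over all arrays. Within group 3, CO minus untreated at 24 h was 0.00 for ATP6V1C2 and -0.16 for ATP6V0A4. With these groups as a block, the untreated 24 h difference from naive was -0.78 ± 1.18 for ATP6V1C2 and -0.89 ± 0.74 for ATP6V0A4, less than or near its error, since group 3 holds no naive array.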

How the data were processed

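The table holds log2 levels that the authors deposited after RMA, per the submitters' processing notes, with version and settings not given in the sources used here. The table has 24123 probe sets, and all but 124 controls, 23999 in number, were tested without a filter. The platform annotation gives 10069 of them 1 symbol, 198 several and 13732 none. Groups follow source and title.

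All 5 groups were fitted together with limma 3.58.1 in R 4.3.3 (lmFit, eBayes, no block), two-sided, with Benjamini-Hochberg adjustment over 23999 probe sets and a threshold of 0.05. The values after ± are limma standard errors unless SD is stated. Fits were tested on simulated data. Figures used matplotlib 3.10.9 in Python 3.11.15.

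The members and lists were chosen with earlier results of these data known. Named genes are the members, other V-ATPase genes, the 5 genes most correlated with each member, before and after removal of group means, and up to 3 called genes per list (otherwise that of smallest p).

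Donor numbers pair CO and untreated kidneys, since the labels give a donor per kidney. After group means were removed, partners correlated at -0.201 to 0.569, over 0.1 in 6 of 8 donors. Numbers in the naive arrays' file names recur in those of donor 4, so these kidneys may share animals, which the tests ignore. Whether arrays of a group are separate animals beyond the donor number is not stated, so p-values measure the spread between these arrays.

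Alternatives were quantile normalisation, median centring, array weights, a robust trended variance, a filter on dim probe sets, file-name groups or donor as a block, fewer groups and leaving out arrays. Correlations without the untreated 4 h array of donor 1 were added after seeing the data.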

Additional observations from a re-analysis of the deposited data

Results flagged for a closer look

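In 92 groups of 4 arrays examined, 7 had an array farther from the rest of its group than Dixon's criterion allows, and chance gives about 1 in 20. For the members this was the dimmer ATP6V1C2 probe set in CO 4 h kidneys, where donor 2 was highest at 4.21. The untreated 4 h kidney of donor 1 was not among them.

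Of the other V-ATPase genes, ATP6V1A, the catalytic subunit, was lowest in the CO 4 h kidney of donor 2 with both of its probe sets, at 5.35 and 5.70, and one of them was highest in the untreated 24 h kidney of donor 5, at 6.55. The second ATP6V0D1 probe set was lowest in the untreated 24 h kidney of donor 8, at 6.65. The dimmer ATP6V1G2 probe set was highest in the CO 24 h kidney of donor 5, at 2.03, where background is 1.62. The dimmer TCIRG1 probe set was highest in the untreated 4 h kidney of donor 2, at 4.88.

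Levels differed between 24 h and 4 h by limma's adjusted p for ATP6AP2 (-0.69 in untreated, -0.73 in CO kidneys), ATP6V1C1 (-0.73 and -0.65) and ATP6V1E1 (-0.68 with CO). Whether these time differences themselves differed between CO and untreated was tested as an interaction, and 0 of 15 genes passed, with adjusted p of at least 0.996 (limma).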

How the results depend on the processing

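The members' differences from naive and between times kept their direction in every alternative run. Without 1 array, the ATP6V1C2 difference from naive ranged from -4.01 to -2.74 in untreated 4 h kidneys, and from untreated 4 h to 24 h from 1.50 to 2.76. For ATP6V0A4 these ranges were -2.71 to -1.91 and 0.91 to 1.72. CO minus untreated ranged from -0.23 to 1.03 for ATP6V1C2 and from -0.06 to 0.74 for ATP6V0A4 at 4 h, and from -0.36 to 0.06 for ATP6V1C2 at 24 h, where array weights gave 0.08. With donor as a replicate block, CO minus untreated was 0.16 ± 0.58 at 4 h and -0.15 ± 0.58 at 24 h for ATP6V1C2, and 0.19 ± 0.32 and -0.15 ± 0.32 for ATP6V0A4. With this block the members' adjusted p at 24 h stayed at 1, and over all probe sets 1 was called at 4 h, where 0 were without it, and 0 at 24 h.

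Calls among the 15 other V-ATPase genes were 0 with file-name groups as a block in each comparison. With array weights they were 1 in untreated 4 h, 3 in CO 4 h, 9 in untreated 24 h and 8 in CO 24 h kidneys against naive. That setting called 19.8%, 29.3%, 32.3% and 25.9% of all probe sets in the same comparisons. Between times it gave 5 in untreated and 7 in CO kidneys, beside 20.7% and 28.9% of all probe sets. Only the compared groups in the fit gave 0 for CO 4 h against naive and 1 between untreated times, and file-name group 1 alone gave 0 for CO 4 h. Leaving out arrays gave 0 to 1 for CO 4 h, 1 to 5 for untreated 24 h and 0 to 3 for CO 24 h against naive, and 0 to 4 between untreated times.

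Of the 5 intercalated cell markers, array weights gave 3 calls in untreated 4 h and 3 in CO 4 h kidneys against naive. That setting called 19.8% and 29.3% of all probe sets there. Between CO times it gave 2, beside 28.9% of all probe sets. For CO 4 h, the file-name block, the compared groups alone and the filter on dim probe sets each gave 2, and group 1 alone gave 0. The file-name block gave 0 at 24 h against naive and between times in both treatments, and the compared groups alone gave 0 between untreated times and 2 between CO times. Leaving out arrays gave 0 to 2 for untreated 4 h, 0 to 1 for CO 4 h and 1 to 3 for each 24 h group against naive, and 0 to 1 between untreated times. The causes were not tested. Over all alternatives the calls at 24 h against naive ranged from 6 to 13 of 14 proximal tubule genes in untreated and 0 to 13 in CO kidneys, from 0 to 8 of 11 phagocyte markers and 0 to 3 of 7 principal cell markers in each treatment. With 2 naive arrays, single arrays decide many calls.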
